A study of Homo sapiens with 7 samples.

Results

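The array carried probes for 245 numbered zinc finger genes of chromosome 19, out of 36337 gene names in all. They were chosen by name and place only: every gene whose symbol was ZNF followed by a number and whose probe lay on chromosome 19 was taken, whatever its signal. Of these genes, 82 lay on the short arm and 163 on the long arm, with a gap at 26 Mb as the dividing point (GRCh37). They were represented by 367 probes, 1 probe for 145 genes and 2 to 4 probes for the other 100.

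The series concerns the human HCT116 line, a diploid colon carcinoma line, here a derivative in which histone H2B is tagged with GFP. Cultures were grown in DMEM with 10% serum, and the treated group received bafilomycin A1, an inhibitor of the vacuolar proton pump that blocks lysosomal acidification and autophagy, at 10 nM for 30 h. The treated group held 4 replicates, each hybridised as 100 ng of total RNA to its own single-colour array. All 4 arrays lay on 1 slide. The 3 untreated samples were not analysed here, so every value below describes treated cells and none measures a response to bafilomycin. The labels do not say whether replicates came from separate cultures, and the study's methods state biological replication for statistically evaluated experiments in general, without naming these arrays. Part of the spread between arrays may therefore be technical.

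Zinc finger proteins of this kind carry tandem C2H2 fingers, each of which contacts a short stretch of DNA, and most of those encoded on chromosome 19 also carry a KRAB domain. The KRAB domain recruits TRIM28 and the histone methyltransferase SETDB1, which place H3K9me3 at the bound sequence, and many targets are retroelements. The genes arose by tandem duplication, so neighbours are often paralogs with closely similar finger-coding sequence.

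The label was checked against the RefSeq table of gene names. All 245 members had an entry, 242 under the same symbol and 3 under an older one, and the description of 243 contained the words zinc finger. RefSeq listed 237 as protein coding and 8 as transcribed pseudogenes. No protein sequences were used here, so the number of fingers and the presence of a KRAB domain were not examined.

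Because the genes are paralogs, the sequences on the array matter for what each value measures. Of the 367 member probes, each 60 bases long, 22 probes of 21 members shared a run of at least 20 bases with a probe of another member. Of these, 18 probes of 17 members belonged to the cluster between ZNF101 and ZNF254 on the short arm. The longest, of 34 bases, joined the probes for ZNF253 and ZNF85. The 5 probes below are shown because they carry the same finger-linker stretch. Capitals mark the longest run that each shares with ZNF253, and for ZNF253 itself the 34 bases shared with ZNF85.
ZNF253: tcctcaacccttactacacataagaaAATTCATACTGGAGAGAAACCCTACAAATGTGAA
ZNF85: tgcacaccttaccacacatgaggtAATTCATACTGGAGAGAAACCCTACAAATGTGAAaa
ZNF729: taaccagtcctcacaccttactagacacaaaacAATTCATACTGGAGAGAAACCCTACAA
ZNF676: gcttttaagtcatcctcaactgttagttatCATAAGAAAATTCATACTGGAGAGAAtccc
ZNF493: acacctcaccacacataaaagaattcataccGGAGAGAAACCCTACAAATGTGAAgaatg

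The runs shared with ZNF253 were 34 bases for ZNF85, 27 for ZNF729, 26 for ZNF676 and 24 for ZNF493. On GRCh37 the ZNF253 probe lies at chr19:20002774-20002833, ZNF85 at chr19:21132382-21132441, ZNF729 at chr19:22499726-22499785 and ZNF493 at chr19:21606725-21606774, all on the plus strand. The ZNF676 probe lies on the minus strand at chr19:22362755-22362814. The background-subtracted signal of the ZNF253 probe was 966, 930, 1151 and 824 intensity units on replicates 1 to 4, and that of the ZNF85 probe was 399, 348, 457 and 310. The ZNF729 probe gave 300.2, 242, 309 and 226, and the ZNF493 probe 131, 132, 147 and 114. The ZNF676 probe gave -7.54, 1.91, 6.43 and 11.1 and was not well above background on any array. Thus 4 of the 5 probes with this stretch were detected on all 4 arrays and the probe with the shared run of 26 bases to ZNF253 was not. Over all member probes, 200 of 367 were detected on all 4 arrays (54.5%). Whether the shared stretch goes with detection was not tested. How much of any signal came from a paralog's transcript was not tested.

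On the long arm, probes resembled each other mainly position by position. ZNF583 and ZNF461 lie in different clusters, and their probes were identical at 48 of 60 positions. They are shown because neither gave signal, with capitals at the bases that differ.
ZNF583: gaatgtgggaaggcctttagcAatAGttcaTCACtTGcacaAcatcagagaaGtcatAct
ZNF461: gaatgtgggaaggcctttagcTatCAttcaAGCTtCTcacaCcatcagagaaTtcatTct

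The ZNF583 probe (chr19:56935345-56935404, plus strand) read 3.66, 3.98, -2.58 and 2.47 intensity units on replicates 1 to 4. The ZNF461 probe (chr19:37129687-37129746, minus strand) read 9.85, 6.76 and 3.67 on replicates 1, 2 and 4 and had no usable spot on replicate 3. None of these values passed the detection flag.

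The linker that joins consecutive fingers is strongly conserved, and a pattern for its coding sequence, ACNGGNGANAANCC, was searched on both strands of every probe. It was present in 31 of the 50599 probes of the array in the sense direction (0.0613%) and in 2 as the reverse complement. Among member probes, 14 of 367 contained it (3.81%), all in the sense direction. It was also present in 9 probes of numbered zinc finger genes that are not members. Those of other chromosomes had 420 probes in all, so the pattern is not particular to the members. Of the 14 member probes 9 were detected on all 4 arrays, against 200 of all 367 member probes (54.5%).

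The scanner software flags each spot whose signal is well above background. A probe counted as detected if over 50% of its spots on an array had this flag, and a gene was called detected when 1 of its probes was detected on all 4 arrays. By this measure 157 of the 245 members were detected (64.1%). The share was 52.5% over all gene names on the array and 70.9% over the names of RefSeq protein-coding genes. For 278 numbered zinc finger genes of other chromosomes it was 77.3%, and for 1643 other genes of chromosome 19 it was 67.7%. The members thus stood above all gene names together and below each of the other sets. These shares were not tested against each other. Because whole cultures were profiled, fewer cells with a transcript and less of it per cell cannot be told apart.

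Of the 245 members, 62 were detected on no array, 157 on all 4 and the remaining 26 on 1 to 3 arrays. The last were 10.6% of members, against 11.9% of all gene names. Detected member probes read between 22.04 and 324407 intensity units, and probes detected on no array between -13.2 and 21.5. These ranges did not overlap, a separation that the flag itself largely sets. By array, 174, 174, 171 and 164 members were detected on replicates 1 to 4. The lowest number, on replicate 4, went with the lowest share of well-above-background spots over the whole array (55.6%, against 58.5% to 60.4% on the others). Of the 26 members seen on some arrays, 19 were missing on replicate 4 and 9 to 12 on each of the others.

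The arms were similar. On the short arm 55 of 82 members were detected (67.1%) and on the long arm 102 of 163 (62.6%). The order depended on how probes were treated. When the 22 probes sharing a run of at least 20 bases with another member were left out, the shares were 60% of 75 members on the short arm and 62.7% of 161 on the long arm. When every probe of a gene had to be detected, they were 50% and 50.3%. A gene with more probes has more chances to be called, but the share varied little with probe number: 62.8% for members with 1 probe, 65% with 2 and 66.7% with 3.

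By position the members fell into 9 clusters of at least 5 genes, separated by more than 1 Mb, plus 11 scattered genes. On the short arm, the clusters ran from ZNF554 to ZNF77 (3 of 5 detected), from ZNF557 to ZNF846 (13 of 16), from ZNF653 to ZNF791 (17 of 26) and from ZNF101 to ZNF254 (21 of 34). On the long arm they ran from ZNF302 to ZNF792 (4 of 5), from ZNF565 to ZNF573 (11 of 26), from ZNF575 to ZNF296 (14 of 23), from ZNF175 to ZNF331 (26 of 40) and from ZNF628 to ZNF446 (43 of 59). The share was highest between ZNF557 and ZNF846 (81.3%) and lowest between ZNF565 and ZNF573 (42.3%). It was 64.1% over all members and 52.5% over all gene names. These are the extremes of 9 clusters with few genes each, and the clusters were not tested against each other. Which cluster was highest depended on the gap: with 0.5 Mb it was the cluster of 5 genes from ZNF302 (80%), and with 2 Mb the merged cluster of 42 genes from ZNF557 (71.4%). The lowest was again the cluster from ZNF565 with 0.5 Mb, and with 2 Mb a merged one of 31 genes from ZNF302 that contains it (48.4%). In the cluster from ZNF565 to ZNF573, 12 genes were detected on no array and 3 on some.

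**Figure D1:**
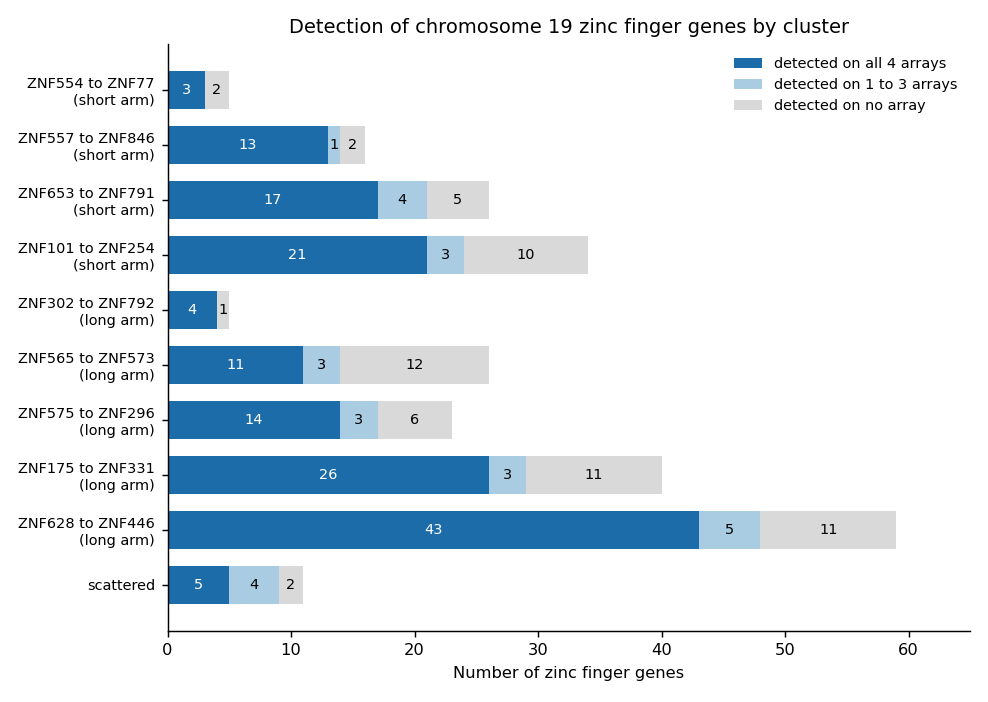
Number of members per cluster (horizontal axis), in order along the chromosome, divided by whether they were detected on all 4 arrays, on 1 to 3 arrays or on none. The cluster from ZNF565 to ZNF573 has 11 detected and 12 undetected members, while the cluster from ZNF628 to ZNF446 has 43 detected and 11 undetected.

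Of the 62 undetected members, among 245 in all, 30 had an undetected member next to them, and 3 stretches held at least 3. Whether these counts exceed those of a random order was not tested. The longest stretch, in the ZNF565 to ZNF573 cluster, held 5 consecutive members, ZNF566, ZNF260, ZNF529, ZNF382 and ZNF461, between 36939177 and 37129746 on chromosome 19 (GRCh37). Their 9 probes read from -11.2 to 18.8 intensity units, with 23 of 35 values at or below 0. ZNF382, a KRAB repressor described as a tumour suppressor silenced by methylation in carcinomas, had 2 probes, and all 8 of its values lay between -11.2 and -1.12. ZNF260 likewise read below 0 with both probes on every array. ZNF566, in contrast, read 18.8, 14.8, 13.7 and 6.99 on replicates 1 to 4, the upper end of what was not detected.

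A second stretch in the same cluster held ZNF793, ZNF571, ZNF540 and ZNF781 (38034128 to 38159449), whose 4 probes read from -8.51 to 5.69. The third, in the ZNF628 to ZNF446 cluster, held ZNF471, ZNF470 and ZNF71 (57039511 to 57134758), with values from -6.76 to 13.8. ZNF471, a KRAB gene also reported as methylated in tumours, read 2.58, 3.79, -2.10 and 13.8 on replicates 1 to 4, so its value on replicate 4 set the upper end.

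With 157 of 245 members detected on all 4 arrays and 62 on none, detected members formed longer stretches. Whether this goes beyond the larger share detected was not tested. On the short arm, 11 consecutive members from ZNF57 to ZNF266 were detected on all 4 arrays, as were 11 from ZNF563 to ZNF14. On the long arm, 9 consecutive members were detected from ZNF808 to ZNF816, 9 from ZNF628 to ZNF444 and 9 from ZNF264 to ZNF749. Some of these stretches bridge a cluster boundary.

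In the short-arm cluster from ZNF101 to ZNF254 the undetected members were ZNF506, ZNF682, ZNF737, ZNF431, ZNF708, ZNF43, ZNF208, ZNF676, ZNF730 and ZNF681, among which ZNF431 and ZNF708 were neighbours, as were ZNF43 and ZNF208. Between ZNF175 and ZNF331 they were ZNF649, ZNF615, ZNF432, ZNF836, ZNF610, ZNF880, ZNF534, ZNF415, ZNF347, ZNF818P and ZNF331. Of the 8 members that RefSeq lists as pseudogenes, ZNF833P and ZNF137P were detected on all 4 arrays.

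A list of 33 members with a described role held 22 detected on all 4 arrays, 9 detected on none and 2 on some. In this list 11 of 14 short-arm and 11 of 19 long-arm genes were detected. Over all members 64.1% were detected, 67.1% on the short arm and 62.6% on the long arm. The list was chosen by hand, and no difference between its arms was tested. Values below are log2 signals relative to the array's median over probes with a signal above 0. They can be compared between arrays for 1 gene but not between genes, whose probes differ.

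ZNF91 and ZNF93 act in retroelement control, ZNF91 against SVA elements and ZNF93 against L1 elements. ZNF91 read -1.12, -0.52, 0.26 and -0.96 on replicates 1 to 4, an SD of 0.62 (n = 4). Replicate 3 was the highest and the 4 values covered a 2.60-fold range. ZNF93 read -1.54, -1.13, -1.14 and -1.49, with an SD of 0.22, and here replicates 2 and 3 lay together above replicates 1 and 4. The paralogs ZNF43 and ZNF208 of the same cluster were not detected. ZNF43 read -5.20, 3.14 and -1.96 intensity units on replicates 1, 2 and 4, and ZNF208 read -10.03, 1.88, 4.61 and -5.93 on replicates 1 to 4.

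ZNF274 binds the 3′ ends of other zinc finger genes and recruits SETDB1 there. It read 1.46, 1.74, 1.47 and 1.44 on the log2 scale, with an SD of 0.14 (n = 4), and replicate 2 lay above the other 3. ZNF350, also known as ZBRK1, a repressor that works with BRCA1, read 1.04, 1.06, 1.39 and 0.96, with an SD of 0.19. ZNF473, which acts in the processing of histone transcripts together with the U7 particle, read 1.17, 1.44, 1.15 and 1.10, with an SD of 0.16. In ZNF350 the highest array was replicate 3 and in ZNF473 it was replicate 2.

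ZNF224, a repressor that also interacts with WT1, differed from these and read 1.56, 0.98, 0.88 and 0.69, with replicate 1 the highest and an SD of 0.38. ZNF444, a protein with a SCAN domain, read 6.79, 6.80, 7.07 and 6.78, and replicate 3 lay above the other 3 by more than their whole range. ZNF175 read 0.85, 0.92, 1.36 and 0.93, again with replicate 3 highest. ZNF358 and ZNF414 went the other way. ZNF358 read 4.41, 4.31, 3.35 and 3.96, and ZNF414 read 1.15, 1.15, 0.01 and 0.48, with replicate 3 the lowest in both and an SD of 0.48 and 0.56.

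The 9 undetected members of the list were ZNF43, ZNF208, ZNF331, ZNF382, ZNF432, ZNF569, ZNF540, ZNF671 and ZNF471. ZNF671, like ZNF382 and ZNF471 reported as methylated in tumours, read between -9.40 and 2.92 intensity units with 2 probes. ZNF331, an imprinted gene, was read by 3 probes between -4.61 and 18.2. ZNF582, another gene reported as methylated in tumours, was detected on replicate 1 only, where 1 of its probes read 26.4 against -2.63, 11.6 and 0.82 on replicates 2 to 4. ZNF44 was detected on 3 arrays, with 22.7, 24.5 and 27.4 on replicates 1 to 3 and 15.1 on replicate 4.

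**Figure D2:**
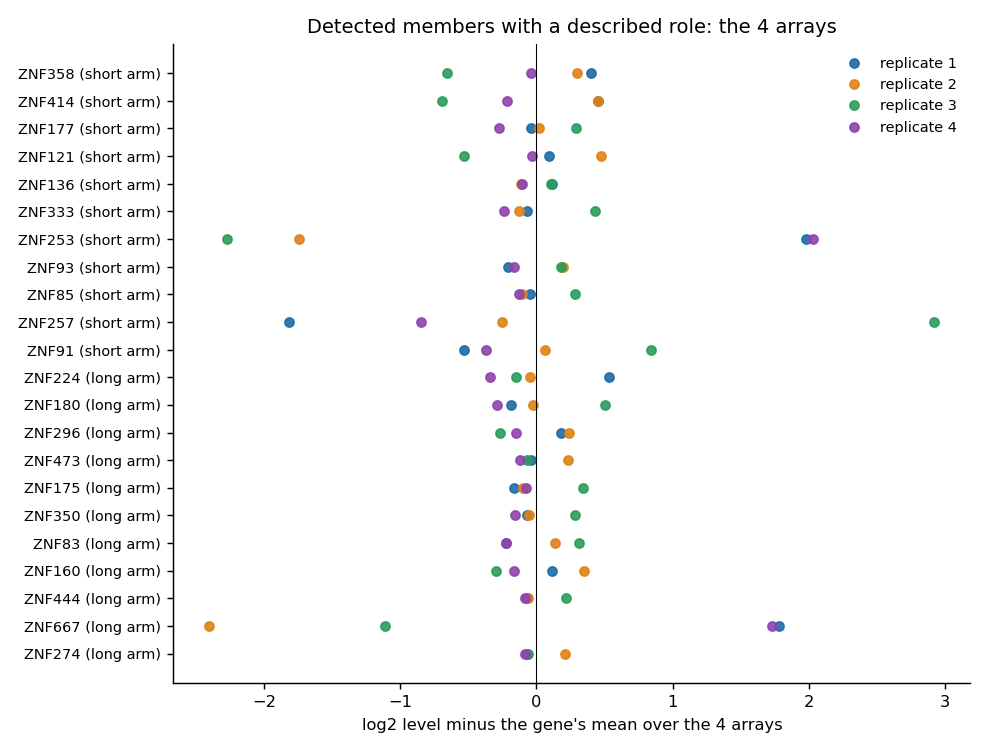
Log2 level of each of the 22 detected members with a described role, minus the gene's own mean over the 4 arrays (horizontal axis), with 1 point per array. Most points lie within 1 log2 unit of 0, and ZNF253, ZNF257 and ZNF667, for which the number of probes with a value differed between arrays, spread beyond it.

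For 23 of the 100 members with several probes, 1 probe was detected on all 4 arrays and another on none. In 32 members every probe was detected on all 4 arrays, in 22 every probe was detected on none, and 23 had another combination. The disagreeing members were 11 of 30 on the short arm and 12 of 70 on the long arm. No such share over all genes with several probes is given here, so these counts cannot be called particular to the members. The 27 detected probes of these genes had a median GC content of 41.7% and the 28 undetected ones 35.0%. Over all member probes, those detected on all 4 arrays had a median of 41.7% and those on none 36.7%. The part of base composition in detection was not tested.

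ZNF90 showed the widest gap. Its probe at 20236287 to 20236346 (chromosome 19, GRCh37) read 4584, 3659, 4121 and 4009 intensity units on replicates 1 to 4. Its probe at 20228630 to 20228689 read -6.80, -6.68, -0.28 and 5.05, and the third, at 20231608 to 20231667, read -2.88, 4.02 and 4.43 on replicates 1, 2 and 4. The array's annotation gives the bright probe to another transcript record than the 2 dim ones. ZNF253 was similar: the probe printed above read 966, 930, 1151 and 824, and its other probe, at 20003475 to 20003534, read -3.75, 4.76, 1.86 and -6.62.

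ZNF729, with 3 probes, was detected only with the probe printed above. Its other probes read 5.10, -8.31, 2.94 and 3.16, and -0.33, -6.26, -5.11 and -1.06. In 5 of the 23 genes (ZNF253, ZNF493, ZNF257, ZNF729 and ZNF726) the detected probe shared at least 20 bases with a probe of another member. This held for none of their undetected probes (0 of 28). In the other 18 genes no such run was present in either kind of probe. Among these were ZNF607, with 2372, 2286, 1976 and 1825 at the detected probe and 4.57, 5.42, 17.0 and 2.98 at the other, and ZNF667, with 147, 131, 158 and 117 against -0.14, 0.42, 2.07 and -1.05.

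**Figure D3:**
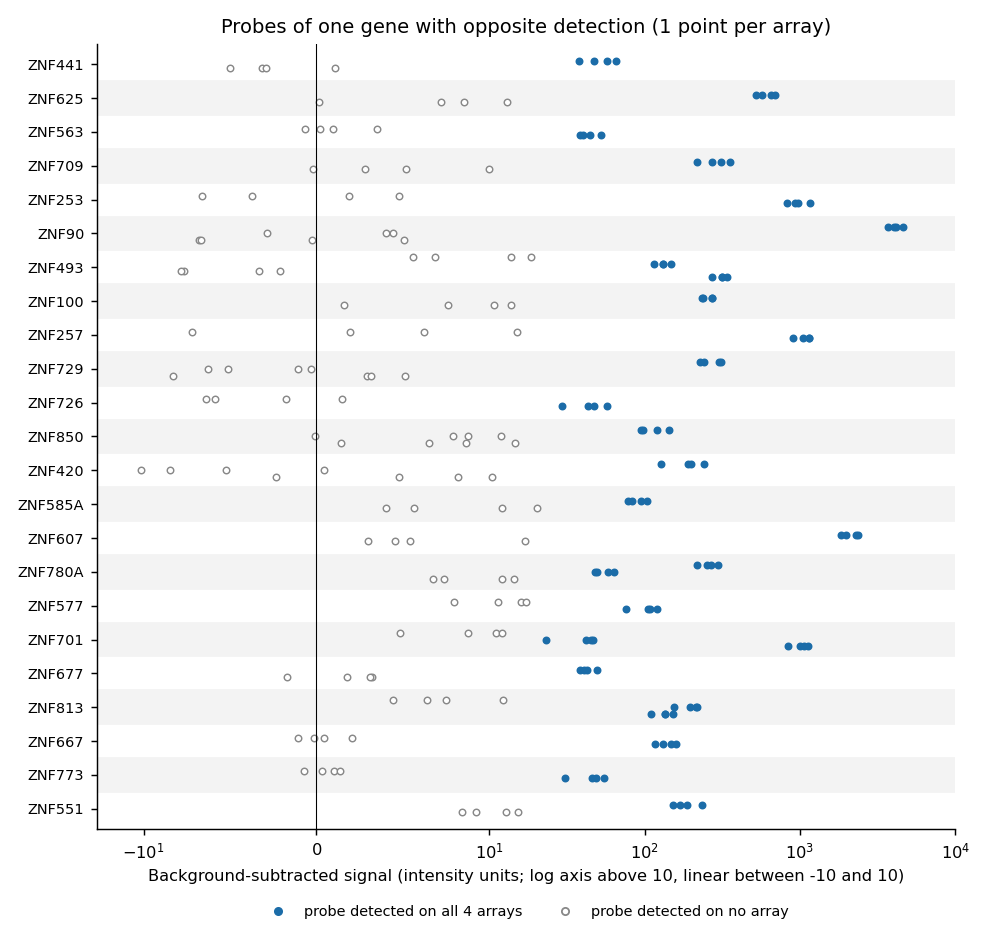
Background-subtracted signal (horizontal axis, logarithmic above 10 and linear near 0) of each probe of the 23 members with opposite probe calls, 1 point per array. The detected probes (filled) of each gene lie apart from the undetected ones (open), which scatter around 0 and reach at most 20.3.

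The level of a gene is the median over its probes, and a probe drops out on an array where its signal is at or below 0, which has no logarithm, or where its spots were outlying. The number of probes behind a gene changed between arrays in 19 of the 157 detected members, in 14 with a signal at or below 0 and in 5 through outlying spots alone. Of the 19, 13 were among the disagreeing members. Their median SD was 1.34, against 0.22 for the 138 measured by the same probes throughout. With outlying spots kept, the SD fell from 1.39 to 0.22 in ZNF497 and from 1.15 to 0.24 in ZNF765. ZNF90 read 5.89, 0.79, 5.88 and -3.65 as a gene, a 747-fold range with an SD of 4.60. Its detected probe alone read 5.89, 5.71, 5.88 and 5.98, a 1.21-fold range with an SD of 0.12.

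ZNF253 read 3.65, -0.08, -0.60 and 3.70 as a gene (SD 2.33) and 3.65, 3.73, 4.03 and 3.70 with its detected probe (SD 0.17). ZNF257 read -0.72, 0.84, 4.01 and 0.24 as a gene (SD 2.05) and 3.88, 3.89, 4.01 and 3.84 with its detected probe (SD 0.08). Altogether 15 of the 157 detected members had an SD over 1, against 845 of all 19083 detected genes. Of the 15 members, 14 had a changing number of probes. How many of the 845 genes did is not given here. With probes detected on all 4 arrays only, no member had an SD over 1 (0 of 157), and the largest was 0.68, in ZNF699. This KRAB gene read -0.88, 0.19, -1.20 and -1.30 with 1 probe, with replicate 2 the highest.

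Over the 157 detected members, the median SD between replicates was 0.23 on the log2 scale, and 0.23 on each arm. It was 0.21 over all 19083 detected genes, 0.20 over the zinc finger genes of other chromosomes and 0.18 over the other genes of chromosome 19. The sets also differed in signal. The median log2 level per array was 1.10 to 1.36 for members and 1.97 to 2.13 for all detected genes. It was 1.88 to 2.20 and 2.84 to 2.97 for the other 2 sets. The part of signal level in the spread was not tested. The lowest and highest arrays lay more than 1.4-fold apart in 87 members (55.4%), against 46.4% of all detected genes. The number depended on the scale: it was 58 with the processed signal and 18 after normexp correction and quantile normalization. Without replicate 3 the number was 40 and the median SD 0.16, while leaving out any other replicate gave 72 or 73. With probes detected on all 4 arrays only, the number was 70.

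Among the smallest SDs, ZNF787 read 4.29, 4.21, 4.20 and 4.19, with an SD of 0.04 (n = 4). Its SD was 0.10 with the processed signal and 0.14 after normexp, where the median over members was 0.11. ZNF626 read 1.14, 1.25, 1.15 and 1.16, with an SD of 0.05. ZNF324B, ZNF552, ZNF548 and ZNF468 of the long arm also had SDs of 0.06. ZNF99 of the short arm had an SD of 0.07. Of the 10 member probes printed as 10 spots, 7 were detected on all 4 arrays. For the ZNF14 probe single spots within an array had an SD of 0.28, and for the ZNF426 probe 0.14. The 4 array values, each an average of the spots, had SDs of 0.25 and 0.19 for these probes, so the 2 kinds of SD are not on equal footing.

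Replicate 3 was the highest array for 83 of the 157 detected members (52.9%) and for 48.5% of all detected genes, and replicate 4 the lowest for 60 members. The median deviation of members from their own 4-array mean was -0.07, 0.03, 0.15 and -0.12 on replicates 1 to 4. For all detected genes it was -0.03, 0.03, 0.10 and -0.10. On the short arm the medians were -0.07, 0.08, 0.16 and -0.10, and on the long arm -0.07, 0.01, 0.14 and -0.12. The signs on replicates 1 and 3 were kept under every scaling, but those over all members on replicates 2 and 4 were not: with the 75th percentile of the processed signal they were -0.02 and 0.0013. Relative to all detected genes, the members lay at -0.04, 0.01, 0.04 and -0.02. Moving an array's centre shifts all genes alike and cannot change these differences. They kept their sign with the processed signal and after normexp correction and quantile normalization, but they are small and were not tested. Replicate 3 had 24 outlying member spots that were left out, against 2 to 11 on the other arrays.

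**Figure D4:**
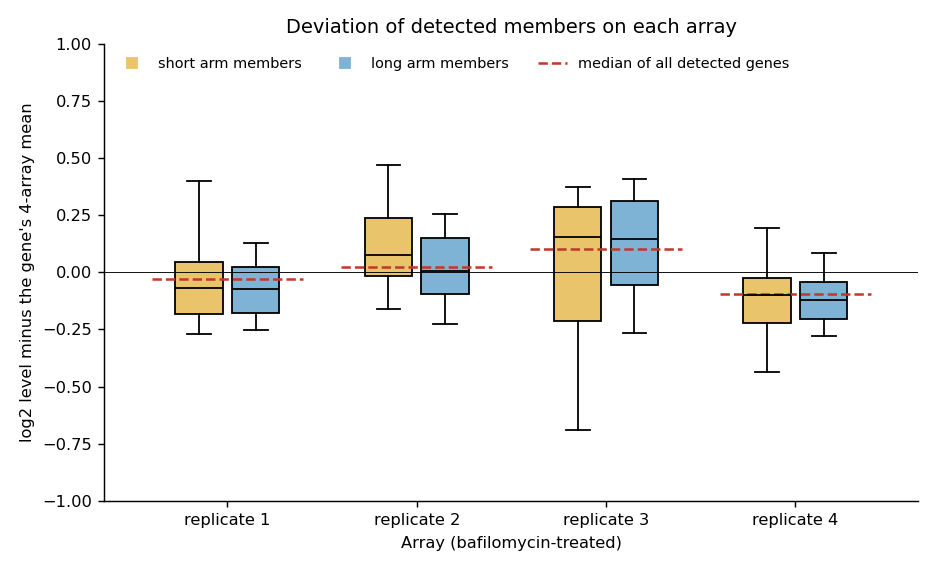
Deviation of detected members from their own 4-array mean (vertical axis, log2) on each array, as boxes for the 55 short-arm and 102 long-arm members (line, median; box, quartiles; whiskers, 10th and 90th percentile), with the median of all detected genes as a dashed line. Both arms lie above 0 on replicate 3 (0.16 and 0.14) and below 0 on replicate 1, while the sign on replicate 4 in both arms, and on replicate 2 in the long arm, changes with the scaling.

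In 18 of the 157 detected members 1 array stood away from the rest by Dixon's ratio, the gap to the nearest value over the whole range (11.5%, against 8.48% of all detected genes). The array apart was replicate 3 in 14 of them, in 11 as the highest value. ZNF304, a KRAB gene of the ZNF628 to ZNF446 cluster, had the largest ratio and read -0.22, -0.26, 0.51 and -0.23. ZNF575 read 1.88, 1.82, 2.55 and 1.85, and ZNF865 read 1.88, 1.94, 2.50 and 1.91. ZNF584 had replicate 4 apart, with 0.31, 0.34, 0.36 and 0.91, but this turned on 1 of its 3 probes, which was detected on replicate 4 only (119 intensity units, against 2.60 to 6.12). With the other probes ZNF584 read 2.09, 2.05, 2.16 and 1.89, with replicate 4 the lowest.

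Promoter windows from RefSeq, 250 bases before to 50 bases after the start of the gene, were found for 208 members. The ratio of observed to expected CpG in this window had a median of 0.61 over 69 short-arm members and 0.82 over 139 long-arm members, against 0.58 over all 27305 windows in the table. Within the short arm, the 26 members of the ZNF101 to ZNF254 cluster had a median of 0.44 and the 43 others 0.67. On the long arm the cluster medians lay between 0.80 and 0.87. The ZNF565 to ZNF573 cluster, with the lowest share detected (42.3%), had a median of 0.80, and the ZNF101 to ZNF254 cluster had 61.8% of its genes detected. Detected and undetected members had medians of 0.64 and 0.50 on the short arm and of 0.83 and 0.82 on the long arm. For the short-arm members outside the ZNF101 to ZNF254 cluster they were 0.72 and 0.56, and within it 0.45 and 0.43. The part of promoter CpG content in detection was not tested. DNA methylation was not measured.

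**Figure D5:**
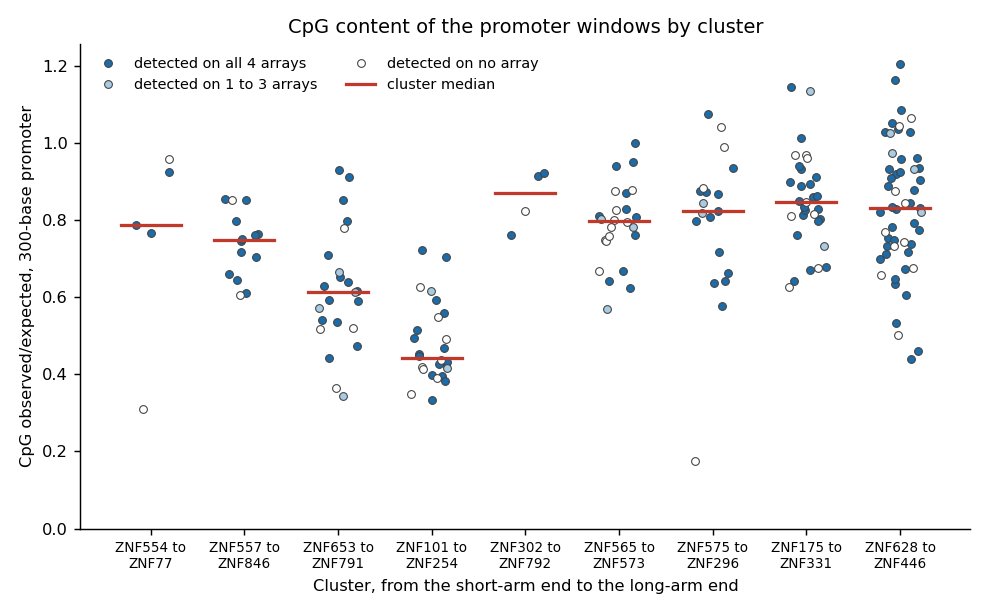
Ratio of observed to expected CpG in the promoter window of each member (vertical axis), by cluster along the chromosome, with shading for detection and a line at each cluster median. The ZNF101 to ZNF254 cluster lies lowest (median 0.44), and detected and undetected genes are mixed within every cluster.

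Transcripts for most partners through which KRAB proteins act were detected, and protein was not measured. Of 26 genes for the TRIM28 complex, HP1 proteins, the NuRD and HUSH complexes and DNA or histone methyltransferases, 25 were detected on all 4 arrays. Over the names of RefSeq protein-coding genes this share was 70.9%. TRIM28, the scaffold, read 7.48, 7.46, 7.52 and 7.34 on the log2 scale (SD 0.08, n = 4). SETDB1, the methyltransferase, read 2.65, 2.44, 2.98 and 2.49 (SD 0.24), with replicate 3 the highest. CBX3, an HP1 protein, was detected on replicates 1 to 3, where it read 3.79, 3.85 and 3.68. On replicate 4 its brighter probe had no usable spot, so the value of -1.53 there rests on the other probe alone. The median SD of the 25 genes was 0.24, and 13 of them spanned more than 1.4-fold, against 46.4% of all detected genes. The largest SDs among the 25 were those of DNMT3B (2.13) and EHMT1 (0.71). DNMT3B, with 2 probes, read -0.66, -0.06, 4.12 and 1.33, and EHMT1 has 3 probes. Whether the number of probes with a value changed between arrays is not given for these genes. Their SDs may therefore not reflect transcript levels.

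The tissue label was checked with a short list of markers. Of 9 epithelial markers, 8 were detected on all 4 arrays, and VIL1, a marker of the intestinal brush border, was detected on none. Of 9 markers of other cell types, COL1A2, COL3A1, LUM and PECAM1 were detected on no array, DCN and GFAP on 1, and PTPRC, CD3E and CDH5 on all 4. CD3E read -0.44, -0.48, -0.14 and -0.30 and CDH5 0.86, 1.25, 0.58 and 0.61, while PTPRC, with 5 probes, ranged from -3.51 to -0.79. Their part in the values of the zinc finger genes was not tested.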

How the data were processed

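Total RNA of the bafilomycin-treated replicates was labelled with Cy3 and hybridised to single-colour Agilent arrays. Each array came as the output of its scan, made with Feature Extraction 10.7.3.1 per the submitters' processing notes. The authors deposited linear intensities, from which the software had subtracted a background and which had not been normalized across arrays. Also deposited were a p-value of each spot against background, used for no call here, and flags for spots that were well above background, positive and significant, saturated or outlying. The saturation flag was set on 0 spots of any array. Probe coordinates are those of GRCh37. The number of arrays, not read depth, limits the precision.

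Control spots and outlying spots (514, 725, 2249 and 527 on replicates 1 to 4) were left out, and spots of a probe were averaged. Following the methods of the study, signals after background subtraction were put on a log2 scale and the array's median was taken off. Here that median was over probes with a signal above 0. The share of probes at or below 0 was lowest on replicate 2 (15.9%) and highest on replicate 4 (18.7%). Genes got the median over their probes. Signals at or below 0 were left out on the array concerned (53 to 65 member probes per array). Dixon's ratio was read against 0.829 for 4 values. CpG observed over expected is the CpG count times the window length, over the product of the C and G counts.

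Gene classes and promoter windows were taken from RefSeq tables (GRCh38.p14), matched by symbol or synonym, and none of their coordinates are given. Members, lists and named genes were chosen with earlier results of these data known. Named were members with a described role, the 6 largest and 6 smallest SDs per arm, members whose probes disagree, the 5 pairs with the longest shared run, co-repressor genes, the ends of each cluster and members with 1 array apart. The result on 1 of these pairs is not reported here. ZNF607, ZNF566, ZNF260, ZNF699 and the other undetected members named by cluster were added after their values were seen. With 1 group, no test between groups was made. Scripts used Python 3.11.15, pandas 2.3.3, numpy 2.4.6, scipy 1.17.1 and, for the alternative background correction, R 4.3.3 with limma 3.58.1, and were tested on simulated data. Alternatives changed the detection flag, the outlying spots, the probes, the background correction, the scaling, the cluster gap and the replicates.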

Additional observations from a re-analysis of the deposited data

Results flagged for a closer look

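In 19 results 1 array lay far from the other 3, with a gap, as a share of the range, above Dixon's critical value for 4 values. They are 18 of the 157 detected members and 1 of the 25 detected co-repressor genes. Chance marks about 1 in 20 sets of 4 values, and 8.48% of all detected genes passed the same value. The array apart was replicate 3 in 15 of the 19, the array with the most outlying spots. Replicate 3 was also the highest array for 48.5% of all detected genes, and how often it stood apart over all genes is not given here. Replicate 3 was the highest for ZNF304 (0.954), ZNF524 (0.926), ZNF575 (0.925), ZNF444 (0.923), ZNF865 (0.904), PPHLN1 (0.890), ZNF576 (0.881), ZNF446 (0.880), ZNF28 (0.879), ZNF497 (0.871), ZNF565 (0.840) and ZNF616 (0.831), where the value is that ratio. It was the lowest for ZNF792 (0.845), ZNF625 (0.842) and ZNF441 (0.838).

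Replicate 2 was the highest for ZNF274 (0.912), ZNF729 (0.911) and ZNF626 (0.856), and replicate 4 for ZNF584 (0.918). ZNF524 read 5.10, 5.11, 5.59 and 5.14 on replicates 1 to 4 on the log2 scale, and PPHLN1, a subunit of the HUSH complex, read 1.02, 1.12, 1.97 and 1.12. In ZNF729, ZNF497 and ZNF441 the number of probes with a value differed between arrays. With its detected probe only, ZNF729 read 1.96, 1.79, 2.14 and 1.83. With detected probes only, ZNF441 read -0.71, -0.30, -0.10 and -0.75, so that replicate 3 was the highest, and ZNF625 read 3.07, 3.29, 3.01 and 3.03, its low value on replicate 3 being that of an undetected probe. On the same basis ZNF792 read 0.34, 0.64, 0.31 and -0.09, ZNF497 read 5.29, 5.20, 5.78 and 4.85, and ZNF584 read 2.09, 2.05, 2.16 and 1.89, each with replicate 4 the lowest.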

How the results depend on the processing

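The number of members detected on all 4 arrays was 157 and stayed within 1.5 times of it under every alternative run, from 123 when every probe had to be detected to 182 with the flag for positive and significant signal. With that flag the shares were 79.3% on the short arm and 71.8% on the long arm, with every probe required 50% and 50.3%, and with probes counted in place of genes 53.4% on the long arm. Leaving out each replicate gave 158 to 163 detected members, shares of 67.1% to 70.7% on the short arm and 63.2% to 64.4% on the long arm, a median SD of 0.16 to 0.23 and 40 to 73 members spanning more than 1.4-fold, with the lowest of the last 2 ranges reached without replicate 3. The median SD was 0.18 with the processed signal scaled to its 75th percentile and 0.11 after normexp correction and quantile normalization, where only 18 members spanned more than 1.4-fold. The SD of 37 of 63 named members moved under normexp. Cluster gaps of 0.5 Mb and 2 Mb gave lowest shares of 42.3% and 48.4% and highest shares of 80% and 71.4%, the latter in clusters bounded otherwise than with 1 Mb.

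The median deviation on replicate 4 moved to 0.027 (short arm) and -0.0017 (long arm) with the 75th percentile, to -0.0035 (long arm) with normexp, and to 0.030 and 0.0071 where each array's centre was taken from every probe, low ones included, an alternative chosen after seeing the data, as was leaving out probes with shared runs. Of 48 recomputed deviations, 6 changed sign. Centring in this way moved the median of all detected genes on replicate 4 from -0.10 to 0.03. The causes were not tested. No paired analysis was possible because the untreated samples that share replicate numbers were not analysed here. Values near background limit which genes have a level at all.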
